A study of Mus musculus with 12 samples.

Results

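BMDMs, macrophages grown from bone marrow, were examined for 10 genes that macrophages use to bind antibody-coated targets and dying cells. The genes were chosen by symbol, as *Fcgr1*, *Fcgr2b*, *Fcgr3*, *Fcgr4*, *Fcer1g*, *Mertk*, *Axl*, *Gas6*, *Stab1* and *Cd300lf*, and all 10 were among the 53379 genes of the count table and among the 12386 genes with enough reads to be tested. BMDMs from 4 C57Bl/6J mice, male and 8 to 20 weeks old by the study's methods, were left untreated or received 1 μM fenoterol, an agonist of the beta2-adrenergic receptor (B2AR), for 1 h or 4 h. Every mouse contributed 1 library to each of the 3 groups, so that n = 4 in each, and all 12 cultures had been differentiated in medium conditioned by L929 cells, which supplies macrophage growth factor. The fenoterol was added without a change of medium, and untreated cells were the control at both time points, so that the comparisons at 1 h and at 4 h share their controls.

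Fc gamma receptors bind the constant part of IgG. In mice, the receptors encoded by *Fcgr1*, *Fcgr3* and *Fcgr4* activate the cell through the shared gamma chain encoded by *Fcer1g*, whereas the receptor encoded by *Fcgr2b* carries an inhibitory motif and restrains them. Efferocytosis is the uptake of dying cells, which expose phosphatidylserine on their surface. GAS6 bridges this lipid to the TAM receptor tyrosine kinases MERTK and AXL, while stabilin-1, encoded by *Stab1*, and CD300LF, encoded by *Cd300lf*, bind it themselves.

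Total counts per library were 14580533 to 22580692 in untreated BMDMs, 18288911 to 20549801 after 1 h and 18446470 to 24153284 after 4 h. The summed level of 7 macrophage markers was 37495 to 39558 CPM (read counts scaled to a library of 1000000 reads) in untreated BMDMs, 33784 to 39976 after 1 h and 32008 to 36619 after 4 h. By the edgeR test described below, 1 of the 7 was higher after 1 h, where 20.1% of all genes tested were called, and 2 were higher and 3 lower after 4 h, where 40.0% of all genes were called (19.7% higher and 20.4% lower). Markers of other cell types were low, with neutrophil markers at 24.8 to 49.6 CPM and fibroblast markers at 19.1 to 60.4 CPM in sum. T cell, B cell, and mast cell and basophil markers were at or below 0.319 CPM in sum, and dendritic cell markers at or below 1.71 CPM. Of the 21 markers of these 6 other types, 7 were tested, and edgeR called 0 of them at 1 h and 0 at 4 h, against the same 20.1% and 40.0% of all genes. An unadjusted p under 0.05 was likewise reached by 0 at each time, DESeq2 called 0, and limma-voom called 0 at 1 h and 1 at 4 h. In such bulk samples, fewer cells of a type and less RNA per cell cannot be told apart.

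Levels of different genes were compared as CPM per kilobase of exon. In untreated BMDMs the order was *Fcer1g* (1165 ± 106, SD, n = 4), *Fcgr3* (673 ± 40.8), *Gas6* (563 ± 29.5), *Stab1* (300.4 ± 36.9), *Fcgr1* (106 ± 24.5), *Fcgr4* (81.6 ± 15.6), *Fcgr2b* (65.6 ± 4.84), *Mertk* (45.4 ± 2.13), *Axl* (7.14 ± 0.856) and *Cd300lf* (2.81 ± 0.475). The libraries of neighbouring genes in this order did not overlap, except *Fcgr1* with *Fcgr4* and *Fcgr4* with *Fcgr2b*. After 4 h, *Gas6* (254 ± 31.8) lay beside *Stab1* (219.6 ± 12.6), *Fcgr1* (175 ± 11.5) beside *Fcgr4* (169 ± 17.4), and *Cd300lf* (8.41 ± 1.44) beside *Axl* (6.59 ± 0.837), and the libraries of each of these pairs overlapped. The gamma chain gene *Fcer1g* had the highest level per kilobase in all 3 groups. The exon length used for *Fcgr2b* is the union over 7 transcripts, 5790 bases, which makes its level per kilobase lower than a shorter transcript would give.

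**Figure D1:**
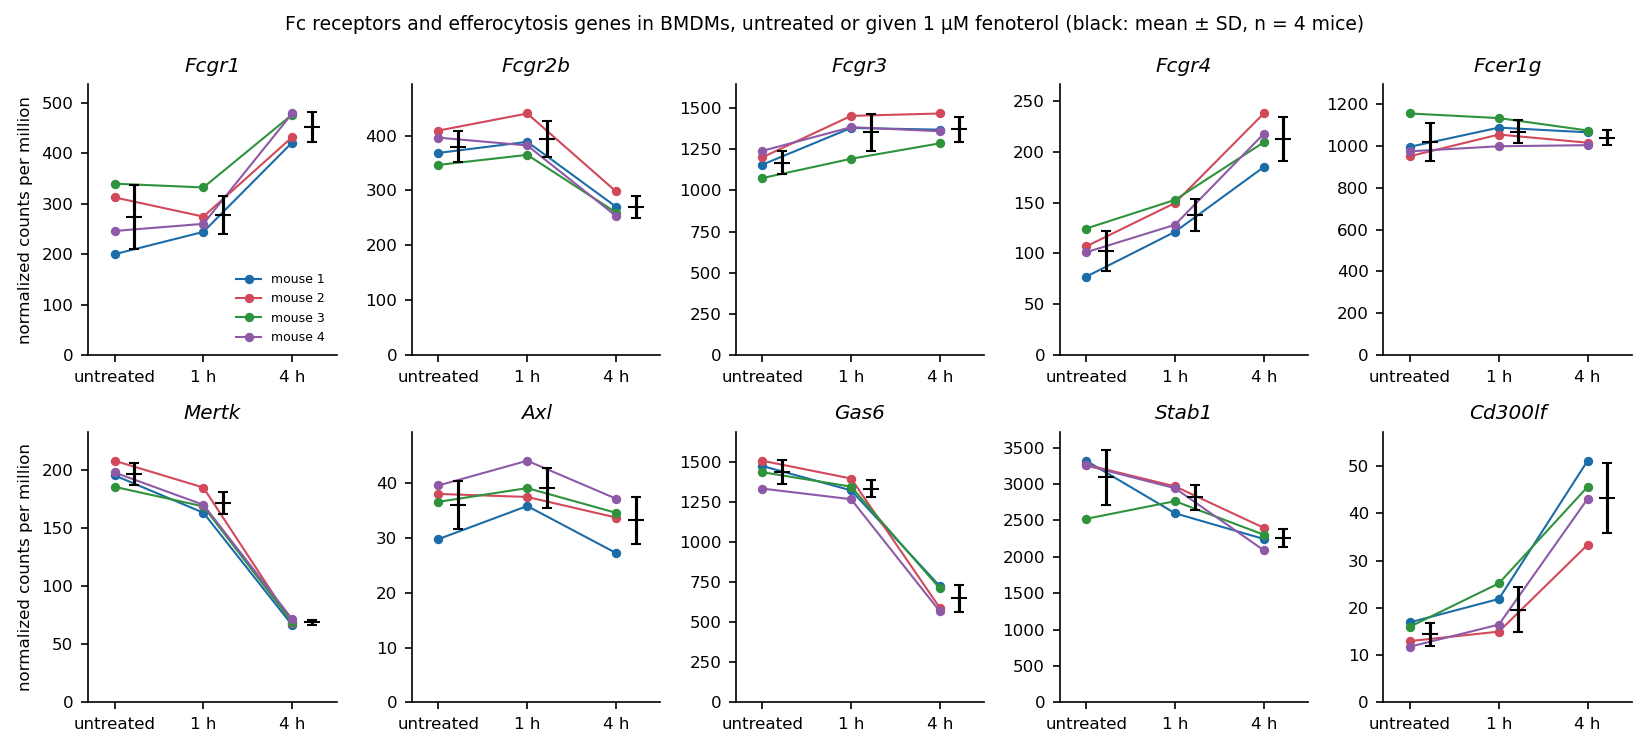
Levels of the 10 genes in every library, as TMM-scaled CPM on an axis that starts at 0 in each panel, with 1 point per mouse and the mean ± SD (n = 4) for untreated BMDMs and BMDMs after 1 h and 4 h of fenoterol. The 4 libraries at 4 h lie apart from the 4 untreated libraries for 8 genes, and overlap with them for *Fcer1g* and *Axl*.

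To determine which of the 10 genes responded to B2AR stimulation, the quasi-likelihood test of edgeR was fitted once to all 12 libraries, with Benjamini-Hochberg adjustment over the 12386 genes. An adjusted p under 0.05 was called a change. Fenoterol for 1 h raised *Fcgr3* and *Fcgr4*, 2 of 10 genes against 10.0% of all genes tested, and lowered *Mertk*, 1 of 10 against 10.1%, which makes 3 of 10 called against 20.1% of all genes. The libraries of 1 of 10 genes, *Mertk*, did not overlap between the groups, against 23.0% of all genes. Fenoterol for 4 h raised *Fcgr1*, *Fcgr3*, *Fcgr4* and *Cd300lf*, 4 of 10 against 19.7% of all genes, and lowered *Fcgr2b*, *Mertk*, *Gas6* and *Stab1*, 4 of 10 against 20.4%, which makes 8 of 10 called against 40.0%. The libraries of these 8 genes did not overlap with the untreated libraries, which held for 37.6% of all genes. The median absolute log2 fold change of the 10 genes was 0.13 at 1 h, against 0.15 over all genes, and 0.61 at 4 h, against 0.23 over all genes.

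**Figure D2:**
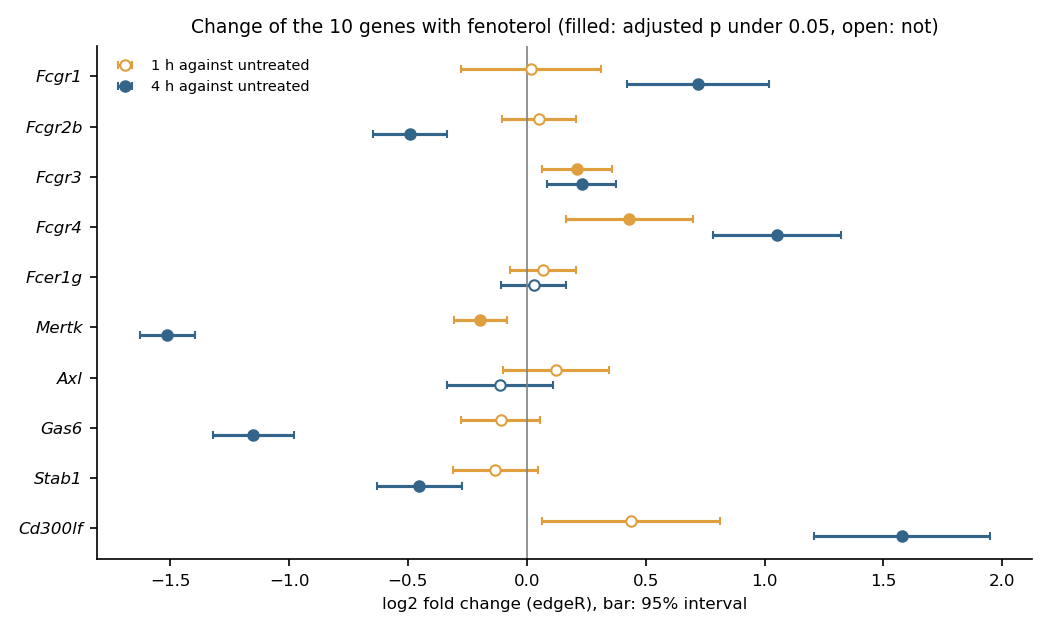
Log2 fold changes of the 10 genes against untreated BMDMs after 1 h and 4 h of fenoterol, with 95% confidence intervals from edgeR's fit. Each point is the fitted value of a gene at 1 time, filled where the edgeR adjusted p was under 0.05 and open where not. *Cd300lf* (1.58) and *Fcgr4* (1.05) rose most at 4 h, *Mertk* (-1.51) and *Gas6* (-1.15) fell most, and *Fcer1g* (0.03) and *Axl* (-0.11) stayed within intervals that include 0.

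The activating receptor genes rose and the inhibitory receptor gene fell after 4 h. *Fcgr4* (ENSMUSG00000059089, GRCm38, chr1:171018920-171029761, plus strand) encodes a receptor for IgG2a and IgG2b. Its level was 77.2, 107, 124 and 101 CPM in untreated BMDMs of mice 1 to 4, 121, 149.6, 153 and 128 CPM after 1 h, and 185, 238, 209 and 218 CPM after 4 h. The level was higher in the 1 h library than in the untreated library of each mouse, although the groups overlapped, and all 4 h libraries lay above all others. The log2 fold change was 0.43 ± 0.12 (SE) at 1 h (edgeR adjusted p = 0.0239) and 1.05 ± 0.12 at 4 h (edgeR adjusted p = 8.99e-06), a 2.07-fold rise. The call at 1 h did not hold without mouse 1 or mouse 4 among the untreated libraries or without mouse 2 or mouse 3 among the 1 h libraries, and the adjusted p of these fits reached 0.0700.

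*Fcgr1* (ENSMUSG00000015947, GRCm38, chr3:96282909-96293969, minus strand) encodes CD64, the high-affinity IgG receptor. Untreated BMDMs of mice 1 to 4 had 200.2, 313, 340.2 and 246 CPM, with 245, 275, 333 and 260.5 CPM after 1 h and 422, 432, 477 and 479 CPM after 4 h. The untreated and 1 h libraries overlapped, with 2 mice higher and 2 lower, and the 4 h libraries lay above both. At 1 h the log2 fold change was 0.02 ± 0.14 (edgeR adjusted p = 0.959), with a 95% confidence interval of -0.28 to 0.31, and at 4 h it was 0.72 ± 0.14 (edgeR adjusted p = 0.000730), a 1.65-fold rise. *Fcgr1* had the widest spread among untreated libraries of the 10 genes, with a coefficient of variation of 23.1%, against 6.60% after 4 h.

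*Fcgr3* (ENSMUSG00000059498, GRCm38, chr1:171051174-171064935, minus strand) encodes CD16, a low-affinity activating receptor for IgG. Its untreated level was 1156, 1200.5, 1075 and 1239 CPM in mice 1 to 4, with 1379, 1452, 1192 and 1383 CPM after 1 h and 1368, 1466, 1285 and 1359 CPM after 4 h. Each mouse was higher at both times than untreated, but only the 4 h libraries lay wholly above the untreated ones. The rise was small and of like size at both times, with a log2 fold change of 0.21 ± 0.07 at 1 h (edgeR adjusted p = 0.0411) and 0.23 ± 0.07 at 4 h (edgeR adjusted p = 0.0143), and the 4 h and 1 h levels differed by 0.02 (95% confidence interval -0.13 to 0.16). The call at 1 h was lost in 9 of 16 alternative fits, including those without mouse 1, 2 or 3 among the untreated libraries and without mouse 1, 2 or 4 among the 1 h libraries (adjusted p up to 0.122 when 1 library was left out). Without untreated mouse 3 the call at 4 h was lost as well (log2 fold change 0.18, edgeR adjusted p = 0.0625).

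*Fcgr2b* (ENSMUSG00000026656, GRCm38, chr1:170958617-170976547, minus strand) encodes the inhibitory receptor. Untreated BMDMs of mice 1 to 4 had 368, 409, 347 and 396 CPM, with 388, 440.1, 365 and 382 CPM after 1 h and 270.3, 298, 259.8 and 253 CPM after 4 h. The 1 h libraries overlapped with the untreated ones, and the 4 h libraries lay below both. *Fcgr2b* fell after 4 h by 0.49 on the log2 scale (SE 0.07, edgeR adjusted p = 7.61e-05), which is 1.41-fold lower, and was 0.05 ± 0.07 at 1 h (edgeR adjusted p = 0.705, 95% confidence interval -0.10 to 0.21). The genes whose log2 levels correlated best with *Fcgr2b* over the 12 libraries were *Nt5c2* (Pearson's r = 0.972), *Lpcat1* (0.971) and *Foxo3* (0.971). These correlations describe libraries that share treatment groups and mice.

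*Fcer1g* (ENSMUSG00000058715, GRCm38, chr1:171229572-171234365, minus strand) supplies the signalling chain of the activating receptors. It had 995, 951, 1154 and 974 CPM in untreated BMDMs of mice 1 to 4, 1087, 1054, 1132 and 998 CPM after 1 h, and 1064, 1015, 1073 and 1003 CPM after 4 h. The 3 groups overlapped. Its log2 fold change was 0.07 ± 0.06 at 1 h (edgeR adjusted p = 0.539, 95% confidence interval -0.07 to 0.21) and 0.03 ± 0.06 at 4 h (edgeR adjusted p = 0.771, -0.11 to 0.17).

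Since the receptors act against each other, their levels per kilobase were also set against each other within each library, as a description with no test of its own. The summed level of *Fcgr1*, *Fcgr3* and *Fcgr4* was 13.1 ± 0.721 times that of *Fcgr2b* in untreated BMDMs (SD, n = 4), 14.7 ± 0.505 times after 1 h and 24.3 ± 1.25 times after 4 h. The 4 h libraries ranged from 23.3 to 26.1 and lay above the untreated libraries, which ranged from 12.6 to 14.2. *Fcgr4* relative to *Fcgr2b* was 1.25 ± 0.290 in untreated BMDMs, 1.62 ± 0.213 after 1 h and 3.62 ± 0.338 after 4 h. The makeup of the activating group shifted also, since *Fcgr3* made up 78.2% ± 4.27 of its summed level in untreated BMDMs and 69.6% ± 1.76 after 4 h, while *Fcgr4* made up 9.46% ± 1.67 and 14.9% ± 1.03. These ratios depend on the exon lengths used, but their change between groups does so only where several genes are summed.

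**Figure D3:**
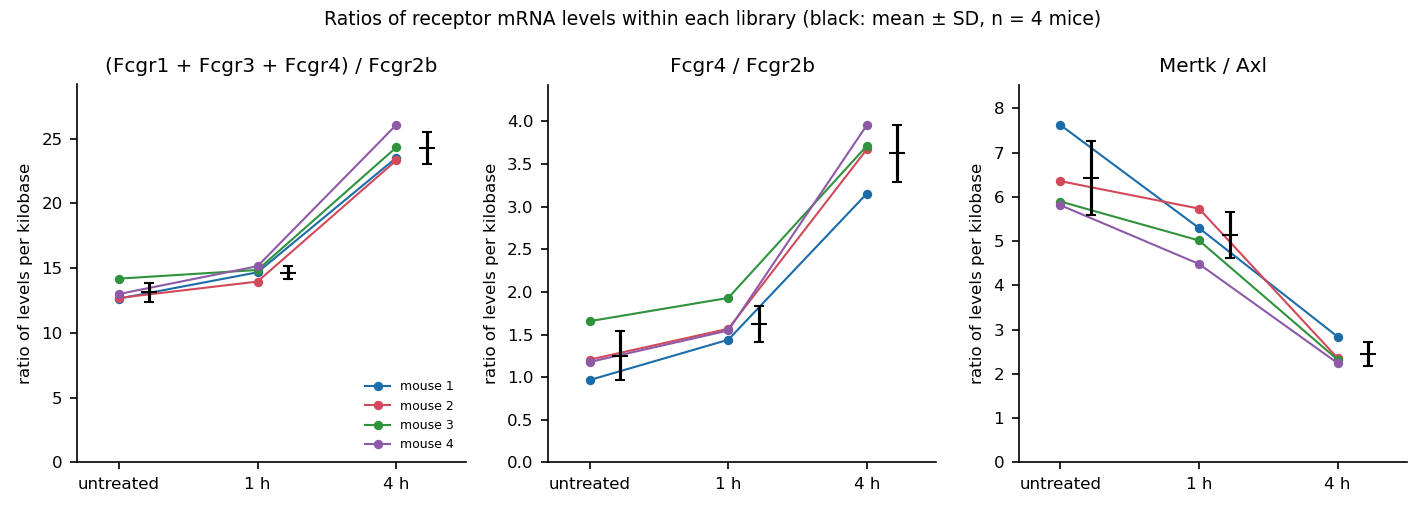
Ratios of levels per kilobase within each library for untreated BMDMs and BMDMs after 1 h and 4 h of fenoterol, with a line per mouse and the mean ± SD (n = 4). The ratio of summed activating receptors to *Fcgr2b* and the ratio of *Fcgr4* to *Fcgr2b* were higher at 4 h in every mouse, and the ratio of *Mertk* to *Axl* was lower.

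*Fcgr2b*, *Fcgr4*, *Fcgr3* and *Fcer1g* lie in this order within 276 kb of chromosome 1 (GRCm38, chr1:170958617-171234365). The gap between *Fcgr2b* and *Fcgr4* is 42.4 kb and that between *Fcgr4* and *Fcgr3* 21.4 kb, so that genes that rose lay beside the gene that fell. The interval holds 17 annotated genes, and 5 tested ones were not among the 10. Of these, edgeR called 0 at 1 h, where 20.1% of all genes were called. An unadjusted p under 0.05 was also reached by 0 at 1 h, and DESeq2 and limma-voom called 0. At 4 h, 2 of the 5 were lower, where 40.0% of all genes were called and 20.4% were lower. They were *Pcp4l1* (-0.84 ± 0.15, edgeR adjusted p = 0.000463) and *Tomm40l* (-0.32 ± 0.10, edgeR adjusted p = 0.0163), named here after their values were seen.

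*Fcgr2b* and *Fcgr3* arose from a common ancestor and still share coding sequence, which bears on how reads of 50 bases were assigned. They shared 166 stretches of 50 bases, 2.92% of those in *Fcgr2b* transcripts and 9.58% of those in *Fcgr3* transcripts. With the stretches found in other genes, 6.95% of those in *Fcgr2b* were not its own alone. The longest run that was identical between a protein-coding transcript of each gene (GENCODE M21) was 129 bases long, lies in the longest open reading frame of both, and is printed here because a read wholly inside it fits both genes:
Fcgr2b and Fcgr3 shared coding stretch: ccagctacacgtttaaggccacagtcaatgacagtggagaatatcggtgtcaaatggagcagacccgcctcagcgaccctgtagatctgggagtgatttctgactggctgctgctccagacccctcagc
The 2 genes moved in opposite directions at 4 h, and the part of shared reads in either value was not tested. *Fcgr1*, *Fcgr4*, *Fcer1g*, *Mertk*, *Axl* and *Gas6* held no stretch of 50 bases found in another gene.

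Among the efferocytosis genes, the TAM receptor *Mertk* and its ligand *Gas6* fell together after 4 h. *Mertk* (ENSMUSG00000014361, GRCm38, chr2:128698956-128802894, plus strand) had 195, 208, 186 and 198 CPM in untreated BMDMs of mice 1 to 4, 163, 185, 169 and 170.1 CPM after 1 h, and 66.6, 68.4, 69.1 and 71.8 CPM after 4 h. Each mouse was lower at 1 h than untreated and lower again at 4 h, and the groups did not overlap, though untreated and 1 h libraries came within 1 CPM of each other. The log2 fold change was -0.20 ± 0.05 at 1 h (edgeR adjusted p = 0.0153), and -1.51 ± 0.05 at 4 h (edgeR adjusted p = 5.13e-11), which is 2.85-fold lower. By p-value *Mertk* ranked 28 among the 12386 genes at 4 h. The call at 1 h was lost without untreated mouse 2 or without mouse 1 or mouse 3 at 1 h, with adjusted p up to 0.0546. The genes closest to *Mertk* over the 12 libraries were *Ehd4* (Pearson's r = 0.998), *Arhgap17* (0.998) and *Asap1* (0.996), as a description of libraries that share groups and mice.

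*Gas6* (ENSMUSG00000031451, GRCm38, chr8:13465374-13494490, minus strand) had 1472, 1505, 1434 and 1331 CPM in untreated BMDMs of mice 1 to 4, 1320.3, 1394, 1343 and 1265 CPM after 1 h, and 724, 588, 709.8 and 567 CPM after 4 h. All 4 mice were lower at 1 h, but the groups overlapped, and the 4 h libraries lay far below both. The log2 fold change was -0.11 ± 0.08 at 1 h (edgeR adjusted p = 0.387) and -1.15 ± 0.08 at 4 h (edgeR adjusted p = 2.80e-08), a 2.22-fold lower level.

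*Axl* (ENSMUSG00000002602, GRCm38, chr7:25757273-25788705, minus strand), the other TAM receptor gene with enough reads to be tested, had a different course. Its level was 29.8, 38.0, 36.5 and 39.5 CPM in untreated BMDMs of mice 1 to 4, 35.8, 37.4, 39.1 and 44.0 CPM after 1 h, and 27.2, 33.7, 34.5 and 37.1 CPM after 4 h. The 3 groups overlapped, and mouse 1 was lowest in each. Within each mouse, the 4 h library was lower than the untreated and the 1 h library. The log2 fold change was 0.12 ± 0.10 at 1 h (edgeR adjusted p = 0.485) and -0.11 ± 0.10 at 4 h (edgeR adjusted p = 0.430, 95% confidence interval -0.34 to 0.11). From 1 h to 4 h it was -0.24 ± 0.10 (edgeR adjusted p = 0.0905), which passed the threshold with the mouse as a block in edgeR (-0.24, adjusted p = 0.00357). Within each library, *Mertk* exceeded *Axl* per kilobase by 6.42 ± 0.837 times in untreated BMDMs (SD, n = 4), 5.13 ± 0.524 times after 1 h and 2.44 ± 0.271 times after 4 h.

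*Stab1* (ENSMUSG00000042286, GRCm38, chr14:31139013-31168641, minus strand) encodes a large scavenger receptor and had the most counts of the 10 genes. It had 3319.7, 3265, 2522 and 3255 CPM in untreated BMDMs of mice 1 to 4, 2598, 2968, 2765 and 2943 CPM after 1 h, and 2245, 2399, 2304 and 2089.9 CPM after 4 h. Untreated mouse 3 lay well below the other untreated libraries, near the level of 1 h, and the 4 h libraries lay below all others. The log2 fold change was -0.13 ± 0.08 at 1 h (edgeR adjusted p = 0.315) and -0.45 ± 0.08 at 4 h (edgeR adjusted p = 0.000515), which is 1.37-fold lower. Without untreated mouse 3 the difference at 1 h was -0.21 and passed the threshold (edgeR adjusted p = 0.0305). On the opposite strand, *Nt5dc2* overlaps 1.09% of the exon length of *Stab1*, with 43617 counts in all against 635085, and whether the counting used strand is not stated. *Nt5dc2* itself had a log2 fold change of -0.13 at 1 h (edgeR adjusted p = 0.289) and -0.26 at 4 h (edgeR adjusted p = 0.0149), and its part in the *Stab1* values was not tested.

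*Cd300lf* (ENSMUSG00000047798, GRCm38, chr11:115116214-115133992, minus strand) encodes an inhibitory receptor of the CD300 family and was the lowest of the 10 genes in untreated BMDMs. It had 17.0, 13.0, 16.0 and 11.8 CPM in untreated BMDMs of mice 1 to 4, 21.9, 14.99, 25.2 and 16.5 CPM after 1 h, and 51.1, 33.4, 45.6 and 43.1 CPM after 4 h. Each mouse was higher at 1 h than untreated, with overlap between the groups, and the 4 h libraries lay above all others. The log2 fold change was 0.44 ± 0.17 at 1 h (edgeR adjusted p = 0.0998) and 1.58 ± 0.17 at 4 h (edgeR adjusted p = 3.73e-06), a 2.98-fold rise from a low level. With the mouse as a block in edgeR, the difference at 1 h passed the threshold (0.44, adjusted p = 0.00175). Its transcripts shared 2.44% of their stretches of 50 bases with other genes, mostly *Cd300ld*. The mean level of *Cd300ld* was far higher, 351 CPM in untreated BMDMs and 492 CPM after 4 h. The part of shared reads in the *Cd300lf* values was not tested.

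The timing was compared directly by testing 4 h against 1 h. Between these times, 7 of 10 genes differed, where 38.5% of all genes did, and the libraries of the same 7 genes did not overlap, against 35.9% of all genes. *Cd300lf* (1.14 ± 0.17, edgeR adjusted p = 9.32e-05), *Fcgr1* (0.70 ± 0.14, 0.00102) and *Fcgr4* (0.62 ± 0.12, 0.00109) were higher at 4 h than at 1 h, 3 of 10 against 18.7% of all genes. *Mertk* (-1.32 ± 0.05, edgeR adjusted p = 2.77e-10), *Gas6* (-1.04 ± 0.08, 1.30e-07), *Fcgr2b* (-0.54 ± 0.07, 4.03e-05) and *Stab1* (-0.32 ± 0.08, 0.00732) were lower, 4 of 10 against 19.8%. *Fcgr3* was the gene called at 1 h and 4 h for which no difference between the times was found.

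The promoters of all 10 genes were read for short motifs, in the 250 bases before each start in RefSeq (GRCm38.p6) and on both strands. The motifs were the full cAMP response element TGACGTCA, its half-site TGACG, which the full element contains, the PU.1 core GAGGAA and the NR4A element AAAGGTCA. PU.1 is a transcription factor of macrophages, CREB binds the cAMP response element downstream of B2AR, and NR4A factors are encoded by early response genes. Among 32851 promoters, 1.55% held the full element, 17.8% the half-site, 23.3% the PU.1 core and 1.34% the NR4A element. The full element, the half-site and the NR4A element were found in 0 of the 10 genes. The PU.1 core was found in 6 of them, namely *Fcgr1*, *Fcgr3*, *Fcgr4* and *Cd300lf*, which rose at 4 h, *Stab1*, which fell, and *Axl*. The 100 bases next to the start are printed for 3 of the genes that rose and for the 2 that fell most, with the PU.1 core in capitals, which reads TTCCTC on these strands:
Fcgr1 promoter, chr3:96293970-96294069, minus strand: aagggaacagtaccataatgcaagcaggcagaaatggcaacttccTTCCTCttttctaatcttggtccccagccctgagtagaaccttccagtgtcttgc
Fcgr3 promoter, chr1:171059404-171059503, minus strand: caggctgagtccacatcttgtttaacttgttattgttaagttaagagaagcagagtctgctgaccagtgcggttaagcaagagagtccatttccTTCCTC
Cd300lf promoter, chr11:115133993-115134092, minus strand: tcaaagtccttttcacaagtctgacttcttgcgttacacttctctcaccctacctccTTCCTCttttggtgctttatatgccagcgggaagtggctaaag
Mertk promoter, chr2:128698815-128698914, plus strand: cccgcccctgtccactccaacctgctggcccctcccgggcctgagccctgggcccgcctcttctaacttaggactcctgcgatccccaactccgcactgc
Gas6 promoter, chr8:13494536-13494635, minus strand: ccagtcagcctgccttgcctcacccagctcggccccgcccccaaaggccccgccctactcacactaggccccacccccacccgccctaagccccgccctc
Among the genes not printed, *Fcgr4*, which rose, and *Stab1*, which fell, also held the core in the 100 bases next to the start. *Fcgr2b*, which fell, held none. A match of letters describes these windows and does not show binding.

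Other genes of the same pathways were counted from 5 lists with 72 genes, of which 64 were tested. Over all genes tested, 10.0% were higher and 10.1% lower at 1 h, and 19.7% were higher and 20.4% lower at 4 h. Of the relatives and signalling partners of Fc receptors, 2 of 17 were higher at 1 h, 6 lower and 9 not called. At 4 h, 4 of 17 were higher, 12 lower, against 20.4% lower of all genes, and 1 not called, with a median log2 fold change of -0.41 against 0.0042 over all genes. *Lyn*, a Src family kinase that phosphorylates Fc receptor chains, rose at 1 h (0.40 ± 0.05, edgeR adjusted p = 4.69e-05) and 4 h (0.74 ± 0.05, 3.75e-08), as did *Syk*, the kinase recruited next, at 1 h (0.31 ± 0.06, 0.00173) and 4 h (0.33 ± 0.06, 0.000457). The exchange factor gene *Vav3* rose at 4 h (0.64 ± 0.07, edgeR adjusted p = 4.66e-06) and was -0.06 ± 0.07 at 1 h (0.681). *Dok1*, an adaptor that restrains signalling, fell at 1 h (-1.001 ± 0.07, edgeR adjusted p = 9.95e-08) and 4 h (-0.70 ± 0.07, 1.97e-06), as did *Trim21*, a cytosolic antibody receptor (-0.87 ± 0.09, 3.61e-06, and -0.66 ± 0.09, 2.38e-05), and *Vav1* (-0.34 ± 0.05, 0.000225, and -0.71 ± 0.05, 5.88e-08).

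Of the other receptors and bridging molecules for dying cells, 1 of 17 was called at 1 h, against 20.1% of all genes, and 9 of 17 at 4 h, 2 higher and 7 lower, against 40.0%. The scavenger receptor *Cd36* was the gene that rose at 1 h (0.37 ± 0.11, edgeR adjusted p = 0.0258). At 4 h the integrin subunit *Itgav* (0.40 ± 0.11, edgeR adjusted p = 0.0111) and *Calr*, which encodes calreticulin (0.33 ± 0.07, 0.00234), rose, while *Stab2*, the relative of *Stab1* (-1.66 ± 0.29, 0.000309), and *Itgb3*, the integrin partner of *Itgav* (-1.58 ± 0.30, 0.000632), fell from low levels. *Tyro3*, the remaining TAM receptor gene, had too few reads to be tested, with a mean of 0.246 CPM in untreated BMDMs. Of the machinery of engulfment, 4 of 17 genes were called at 1 h, 2 higher and 2 lower, near the 20.1% of all genes, and 13 of 17 at 4 h, 5 higher and 8 lower, against 40.0%. *Rhog*, a GTPase upstream of RAC1, rose at 1 h (0.34 ± 0.06, edgeR adjusted p = 0.000829) and 4 h (0.48 ± 0.06, 1.65e-05), the adaptor *Crk* rose at both times (0.21 ± 0.06, 0.0242, and 0.16 ± 0.06, 0.04996), and *Ptk2*, which encodes focal adhesion kinase, rose at 4 h (0.91 ± 0.09, 1.65e-06). *Rubcn*, which acts in LC3-associated phagocytosis, fell at both times (-0.35 ± 0.06, edgeR adjusted p = 0.00114, and -0.75 ± 0.07, 3.56e-07), as did *Wasf2* (-0.22 ± 0.06, 0.0109, and -0.18 ± 0.06, 0.0231), and the actin nucleator gene *Actr3* fell at 4 h (-0.69 ± 0.07, 1.31e-06).

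Of the 6 other CD300 genes, 2 were higher at 1 h and 4 not called, where 10.0% of all genes were higher and 20.1% called. At 4 h, 2 were higher, 1 lower and 3 not called, and these 3 calls of 6 are near the 40.0% of all genes. *Cd300lb* (0.57 ± 0.06 at 1 h, edgeR adjusted p = 6.09e-06, and 0.30 ± 0.06 at 4 h, 0.00113) and *Cd300ld* (0.39 ± 0.06, 0.000171, and 0.49 ± 0.06, 7.83e-06) were the genes that rose, and *Cd300c2* fell at 4 h (-0.21 ± 0.05, 0.00225). The last list held 7 genes of mixed roles around TAM receptors, namely sheddases, a sheddase inhibitor, and adaptors and suppressors of receptor signalling. At 1 h, edgeR called 0 of these, where 20.1% of all genes were called. DESeq2 and limma-voom also called 0, and 0 had an unadjusted p under 0.05. At 4 h, 2 of 7 were higher and 2 lower, against 19.7% and 20.4% of all genes, and with the mouse as a block 4 were lower, where 5870 of 12386 genes were called. The sheddase gene *Adam17*, whose product cleaves MERTK from the surface, fell at 4 h (-0.76 ± 0.07, edgeR adjusted p = 1.07e-06), as did the adaptor *Grb2* (-0.38 ± 0.05, 1.56e-05), whereas the sheddase gene *Adam10* (0.25 ± 0.06, 0.00296) and the inhibitor *Timp3* (0.89 ± 0.27, 0.0158) rose.

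**Figure D4:**
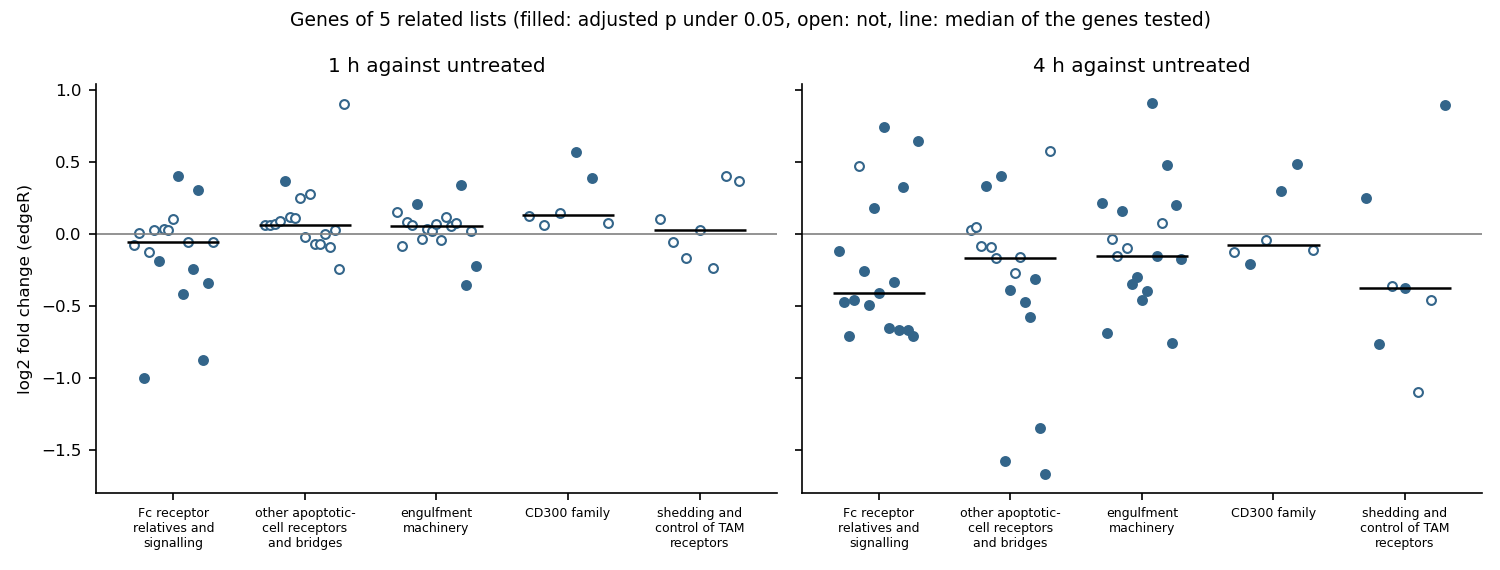
Log2 fold changes of the 64 tested genes of the 5 lists, against untreated BMDMs at 1 h and at 4 h, with 1 point per gene, filled where the edgeR adjusted p was under 0.05, and a line at the median of each list. At 4 h, calls were more often lower than higher among Fc receptor relatives and signalling genes (12 lower, 4 higher). The same held for other apoptotic-cell receptors and bridging molecules (7 lower, 2 higher) and for the engulfment machinery (8 lower, 5 higher). All 5 lists hold both directions.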

How the data were processed

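RNA was measured in 12 BMDM libraries, as stranded mRNA sequenced in single-end reads of 50 bases on 1 lane. The authors mapped the reads to GRCm38 with TopHat 2.0.11, counted them per gene with HTSeq 0.8.0 and deposited raw counts without normalization. The strand option and the annotation release are not given in the sources used here. Counts with no matching symbol in GENCODE M21 were 0.0046% of all.

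From the deposited counts, genes were filtered with filterByExpr, libraries were TMM-scaled, and edgeR 4.0.16 (R 4.3.3) tested each contrast by quasi-likelihood with group means and without covariates, whereas the study used vsn and limma. CPM are counts scaled to a TMM-scaled library size of 1000000, and levels per kilobase divide them by merged GENCODE M21 exon length. Log2 levels for correlations used a prior count of 2. The biological coefficient of variation was 0.112. Standard errors are the log2 fold change divided by the square root of F. Replicates of the same group differed by a chi-square per degree of freedom of 9.38 to 19.5. Within a group, no library was therefore a copy of another, and spread exceeded counting error. The edgeR script was tested on simulated counts.

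Per the labels, a number marks 1 mouse across the groups. Same-numbered libraries' deviations from group means had Pearson's r of 0.290 to 0.561 (12 pairs), against -0.304 to 0.0912 between mice (36 pairs), so the mouse as a block was fitted as an alternative. The other alternatives were DESeq2 1.42.0, limma-voom (limma 3.58.1), RLE or no composition scaling, no filter or a mean count of at least 50, fits of only the groups compared, and each library left out. The genes, the lists and the tests were chosen with earlier results of these data known. Named were all 10 genes, up to 2 list genes with the largest called rise and fall at each time, and for *Fcgr2b* and *Mertk* the 3 best-correlated genes. Promoters came from RefSeq and all 10 genes were matched. Tables were made with pandas 2.3.3 in Python 3.11.15 and figures with matplotlib 3.10.9.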

Additional observations from a re-analysis of the deposited data

Results flagged for a closer look

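Untreated mouse 3 stood apart for *Stab1*, with 2522 CPM against 3255 CPM in the nearest of the other 3 untreated libraries. This gap was 0.919 of the range of the group, above Dixon's critical value for 4 samples. It was 1 of 30 groups tested, where chance gives about 1.5.

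The difference from untreated BMDMs was not the same at 4 h as at 1 h for 7 genes, by edgeR's test of 4 h against 1 h with adjusted p-values. The 4 h difference minus the 1 h difference was 0.70 for *Fcgr1*, 0.62 for *Fcgr4* and 1.14 for *Cd300lf*, and -0.54 for *Fcgr2b*, -1.32 for *Mertk*, -1.04 for *Gas6* and -0.32 for *Stab1*, on the log2 scale.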

How the results depend on the processing

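Over 480 values (10 genes, 3 comparisons and 16 alternatives each), 444 kept their direction and their side of the threshold, 18 lost the call, 6 gained one and 12 changed sign. The 8 genes called at 4 h kept their calls in all alternatives, except *Fcgr3* without untreated mouse 3. The number of genes called at 1 h was 3, 1 when libraries were scaled only by size, and 1 to 3 when 1 library was left out. With the replicate block by mouse it was 4 at 1 h, 8 at 4 h and 8 at 4 h against 1 h, and over all genes 3348, 5870 and 5775 were called, against 2493, 4958 and 4773 without it. The block changed no call of the 10 genes other than those of *Cd300lf* and *Axl* given above. *Cd300lf* at 1 h was also called by DESeq2 (adjusted p = 0.0493), in edgeR with no filter (adjusted p = 0.0386) and in edgeR without mouse 2 at 1 h (adjusted p = 0.0436).

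All sign changes were of differences that missed the threshold. Scaled only by library size, they were *Fcer1g* (-0.000702), *Fcgr1* (-0.050) and *Fcgr2b* (-0.018) at 1 h and *Fcer1g* at 4 h against 1 h (0.053). When 1 library was left out, values ranged from -0.11 to 0.14 for *Fcgr1* and -0.0050 to 0.093 for *Fcgr2b* at 1 h, from -0.0032 to 0.084 for *Fcer1g* at 4 h, and from -0.053 to 0.055 for *Fcgr3* at 4 h against 1 h. The share of higher calls over all genes was 49.8% at 1 h, 49.2% at 4 h and 48.6% at 4 h against 1 h, and became 32.5%, 53.4% and 65.7% when libraries were scaled only by size. Causes of these changes were not tested. Of the 10 genes, *Cd300lf* had the fewest reads in the untreated and 1 h libraries, 190 in its lowest, so that counting error weighs most in its values there. Among the 4 h libraries the lowest count was 512, of *Axl*, against 627 in the lowest 4 h library of *Cd300lf*.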
